A study of Rattus norvegicus with 6 samples.

Results

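Atrnl1 encodes attractin-like 1, a single-pass transmembrane protein, and its gene gave 27 of the 11123 circular RNA (circRNA) entries measured in rat white matter. All entries that the authors' table assigns to Atrnl1 were taken as members. A total of 25 had at least 1 read and 2 (circRNA8831 and circRNA9424) had none. The gene was chosen by its measured junction reads, which were among the most abundant and were lower in the model than in the control libraries. That contrast is therefore given as a description, and nothing is supported with it. Calls of Atrnl1 in fits across all features are named only to show how they vary with the setting.

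The tissue was white matter of 3 healthy control rats and 3 rats with cerebral palsy, 1 library per rat. Total RNA was digested with RNase R, an exonuclease that removes linear RNA, before random-primed libraries were made. The sources used here do not say how the cerebral palsy model was produced, nor the strain, age or sex of the animals. The libraries held 4750 to 6793 back-splice junction reads each. In bulk tissue, fewer cells that make a circle and fewer circles per cell cannot be told apart.

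A circRNA forms when the donor site at the end of an exon is spliced back to the acceptor site at the start of the same or an upstream exon, which closes the exons between them into a loop. Only reads across that junction count here, so the junction fixes the ends of a circle but not which inner exons it keeps. Attractin and attractin-like 1 are related large proteins with a CUB domain, kelch repeats, EGF-like and plexin-type repeats outside the cell. In mice, the tail of attractin-like 1 binds the melanocortin-4 receptor, and in rats the loss of attractin in the zitter mutant causes poor myelination and vacuoles in the brain.

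Sequence was available for the start of the host gene, where the RNA that is spliced into linear or circular Atrnl1 forms can begin. RefSeq lists 2 start windows of 300 bases (250 before and 50 after the start) on the plus strand of chromosome 1 in the GRCr8 build, which is not the build of the circRNA coordinates. They are shown because their composition differs, with each CG dinucleotide in capitals.
Atrnl1 window 1, chr1:266675801-266676100: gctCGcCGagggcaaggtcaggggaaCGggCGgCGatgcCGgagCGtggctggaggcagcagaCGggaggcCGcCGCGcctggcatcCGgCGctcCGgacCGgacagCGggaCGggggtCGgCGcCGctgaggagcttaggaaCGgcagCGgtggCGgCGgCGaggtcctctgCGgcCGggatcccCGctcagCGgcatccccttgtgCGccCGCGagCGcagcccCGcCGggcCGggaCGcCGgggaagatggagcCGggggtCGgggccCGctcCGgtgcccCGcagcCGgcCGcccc
Atrnl1 window 2, chr1:266696432-266696731: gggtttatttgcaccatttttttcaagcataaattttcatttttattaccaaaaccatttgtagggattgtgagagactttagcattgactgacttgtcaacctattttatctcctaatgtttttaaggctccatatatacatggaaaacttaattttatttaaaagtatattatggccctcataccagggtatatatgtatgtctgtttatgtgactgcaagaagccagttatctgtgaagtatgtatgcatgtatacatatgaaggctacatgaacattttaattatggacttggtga
The first window held 45 CG dinucleotides and 79.3% G and C, and 98.3% of the 33469 rat start windows in RefSeq held fewer CG. The second held 0 CG and 31.7% G and C. At least 1 CG was present in 94.5% of all windows (median 7). CG reads the same on both strands and was the only motif searched. Junction reads do not show which start was used.

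All 27 members were exonic circles on the plus strand of chromosome 1 (mRatBN7.2 coordinates throughout for circles). They combined 8 acceptor sites with 13 donor sites, so most junctions shared a site with others. Exons are numbered here from the most upstream acceptor seen, at position 256692383, as exon 1, using the exon counts of the authors' table. This scale is not the exon number of the transcript. A 21.1 kb intron lies before that acceptor, and 12 of the 27 junctions began there. The sites formed 2 clusters. A total of 13 junctions lay within exons 1 to 13, 7 began at exon 19 or later, and 6 spanned both clusters. The last, circRNA8831, ran from exon 1 to exon 18 and had no read.

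**Figure D1:**
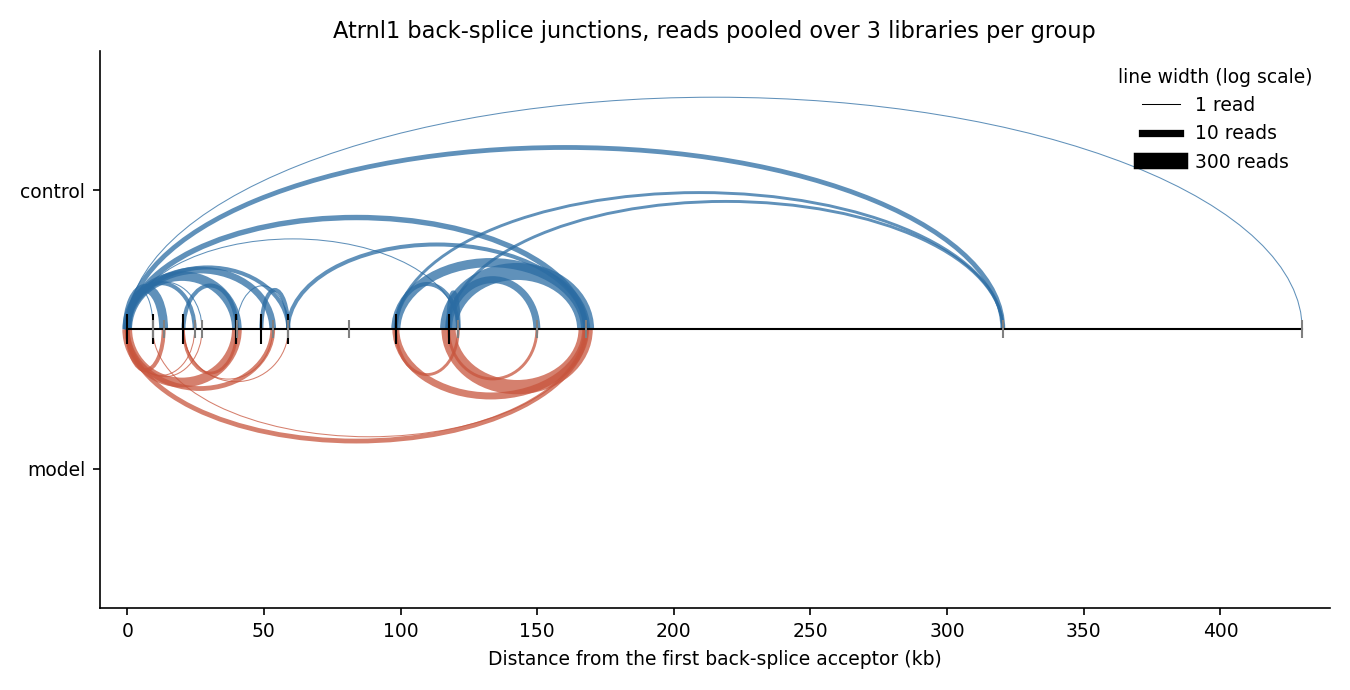
Back-splice junctions of Atrnl1 drawn as arcs from acceptor to donor, against distance in kb from the first acceptor, with controls above the line in blue and model rats below in red. Line width grows with the log of the reads pooled over 3 libraries, long ticks mark acceptors and short ticks donors. The thickest arcs in both groups are circRNA2141, with 355 reads in the control group and 132 in the model group, and arcs that reach past the intron after exon 25 are drawn in the control group with none in the model group.

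The dominant circle was circRNA2141 (256809960 to 256860110, exons 21 to 25, 5 exons over 50.2 kb). It held 487 of 662 Atrnl1 reads (73.6%) and was second in reads among all circRNAs. Its upstream intron spans 10984 bp and its downstream intron 152.5 kb. Among 7447 exonic circRNAs with a read and both flanking introns listed, 98.6% had a shorter downstream intron (median 7.21 kb) and 58.3% a shorter upstream intron (median 8.16 kb). The last exon of the circle, exon 25, is 79 bp long, and exon 24 is 62 bp.

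Its level stood at 20.5, 14.8 and 20.7 reads per 1000 scaled junction reads in control libraries 1 to 3, and at 11.6, 4.52 and 7.78 in the model libraries 1 to 3. The groups did not overlap, and model rat 2, which was also the shallowest library, was lowest. Among the 561 circRNAs with at least 10 reads, 5.88% had every model library below every control library. Of the 6 Atrnl1 circles with at least 10 reads, 1 did. In edgeR's fit across 60 circRNAs its log2 fold (model over control) was -1.22 ± 0.34 (SE, n = 3 per group). It was the only Atrnl1 circle to pass the low-count filter. The test called 3.33% of the 60 circRNAs as lower (adjusted p under 0.05) and circRNA2141 is one of them. It was not called with DESeq2, with DESeq2-type size factors, with no filter or with any 1 of the 6 libraries left out (log2 fold -1.52 to -0.88). That call led to the choice of the gene, so nothing is read from it.

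The second circle, circRNA2126, closes exons 1 to 9 (256692383 to 256732501, 40.1 kb) and its reads did not separate the groups. It had 9, 5 and 10 reads in the control group and 10, 8 and 7 in the model group. Its level was 1.27 ± 0.445 reads per 1000 in the control group and 1.55 ± 0.299 in the model group (SD, n = 3), and the ranges overlapped. The ratio of pooled model to control reads was 1.22, with a 95% interval of 0.667 to 2.23 that covers counting error only. In an edgeR fit of the 1029 circRNAs with at least 6 reads, its log2 fold was 0.15 ± 0.69 (SE) beside -1.34 ± 0.31 for circRNA2141, while the median over all 1029 was -0.06. It and circRNA2141 were the only Atrnl1 circles with a read in all 6 libraries.

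For each read of circRNA2126 there were 15.4, 18.6 and 12.3 reads of circRNA2141 in control libraries 1 to 3, against 6.5, 2.75 and 6.43 in the model libraries 1 to 3. The groups did not overlap in this ratio. The pair was compared after its values were seen, so the difference was not tested. The gene was chosen with the lower circRNA2141 reads of the model group known. Those reads enter both this ratio and the share below, so neither is separate support for a shift in junction use. No background over other pairs of circles is given. As a share of all Atrnl1 reads, circRNA2126 took 5.05% ± 1.44 in the control group and 14.9% ± 6.33 in the model group (SD, n = 3), and it was highest, at 22.2%, in model rat 2.

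**Figure D2:**
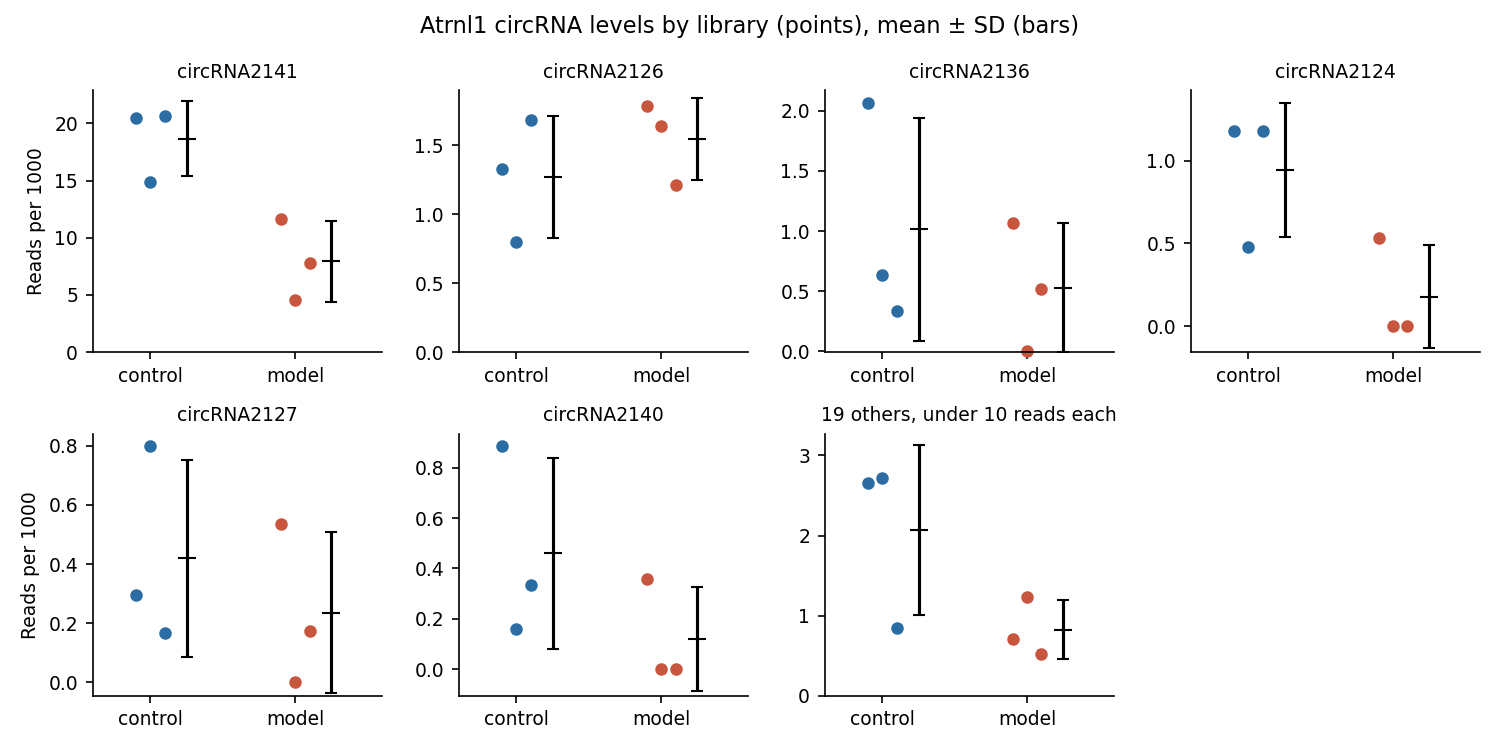
Levels of the 6 Atrnl1 circles with at least 10 reads, and of the 19 others summed, in reads per 1000 scaled junction reads; points are libraries (blue control, red model) and bars show mean ± SD of 3, which can reach below 0 for rare circles. The circRNA2141 points separate, at 14.8 to 20.7 in the control group and 4.52 to 11.6 in the model group, while those of circRNA2126 overlap.

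The donor of exon 25 was shared by 5 junctions and took 79.9% of Atrnl1 reads. Next to circRNA2141, circRNA2136 joins it to exon 19 (256790685 to 256860110, 7 exons). It had 14, 4 and 2 reads in the control group and 6, 0 and 3 in the model group, so control 1 alone held most of the control reads and the groups overlapped. From exon 1, circRNA2130 (25 exons, 168 kb) reached the same donor with 1, 4 and 0 reads against 0, 4 and 0. From exon 13, circRNA2135 (13 exons) did so with 3 reads, all in control 1. Together the junctions that use this donor without circRNA2141 had 28 reads in the control group and 14 in the model group, a ratio of 0.584 (95% counting interval 0.284 to 1.15).

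The acceptor of exon 21 was shared by 4 junctions and took 76.1% of reads. The circles that pair it with another donor are circRNA2139 (exons 21 to 23, 3.56 kb), circRNA2140 (exons 21 to 24, 32.3 kb) and circRNA2142 (exons 21 to 26, 203 kb). The reads of circRNA2140 were 6, 1 and 2 in the control group and 2, 0 and 0 in the model group. Those of circRNA2139 were 1, 3 and 0 against none, and those of circRNA2142 were 1, 1 and 0 against none. In sum they had 15 reads in the control group and 2 in the model group, a ratio of 0.156 (95% counting interval 0.0173 to 0.670), with control 3 and model rat 1 at 2 reads each.

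Most other junctions began at the acceptor of exon 1. The shortest with several reads was circRNA2124 (256692383 to 256705701, exons 1 to 4, 13.3 kb). It had 8, 3 and 7 reads in the control group and 3, 0 and 0 in the model group. After scaling, model rat 1 lay above control 2, so the groups overlapped. The pooled ratio was 0.195 (95% counting interval 0.0367 to 0.667). In exons 1 to 12, circRNA2127 had 2, 5 and 1 reads against 3, 0 and 1. With 4 reads each, circRNA2125 (exons 1 to 7) had 3 in the control group and 1 in the model group, and circRNA2131 (exons 1 to 26) had 4 in the control group. With 3 reads, circRNA2128 (exons 1 to 13) was seen in the control group 1 and 2, and with 2 reads circRNA3659 (exons 1 to 8) was seen once in each group.

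Without circRNA2126, the junctions at the exon 1 acceptor had 16, 17 and 12 reads in the control group and 7, 5 and 1 in the model group. Their level was 2.36 ± 0.348 reads per 1000 in the control group and 0.816 ± 0.568 in the model group (SD, n = 3), and each model library lay below each control library. This grouping, too, was made after the values were seen and was not tested. Such separation was seen in 5.88% of circRNAs with at least 10 reads and in 8.0% of hosts with at least 60 reads. For sums of junctions picked in this way no such share is given. With circRNA2126 included, the reads at this acceptor were 25, 22 and 22 in the control group and 17, 13 and 8 in the model group. After scaling, each model library again lay below each control library.

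**Figure D3:**
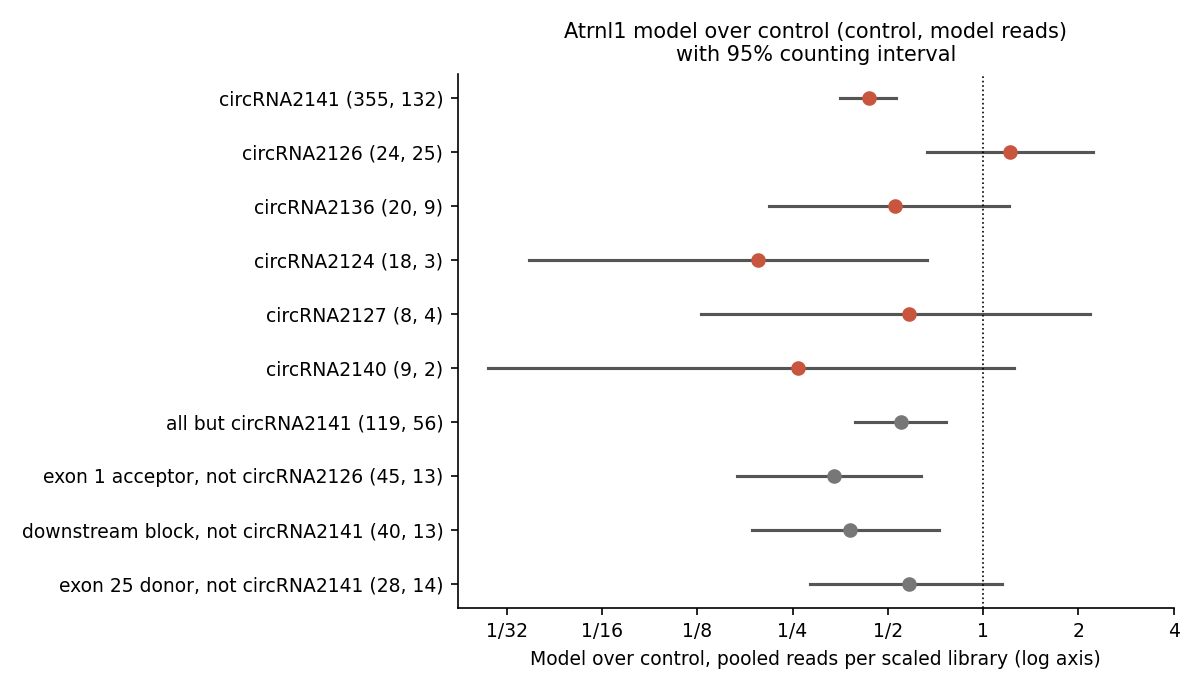
Ratio of pooled model to control reads on a log axis, scaled for library size, for the 6 circles with at least 10 reads (red) and for 4 groups of junctions (grey), with control and model reads in parentheses; lines are 95% intervals for counting error only. The point for circRNA2126 lies at 1.22 and the other 9 lie below 1, of which circRNA2136, circRNA2127, circRNA2140 and the exon 25 donor group have intervals that cross 1.

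Donors beyond the 152.5 kb intron, those of exons 26 and 27, were used by 4 junctions: circRNA2131, circRNA2132, circRNA2137 and circRNA2142. They had 5, 1 and 3 reads in control libraries 1 to 3 and 0 in each model rat. The 95% counting interval of the model to control ratio reached up to 0.592, and control 1 held 5 of the 9 reads. The longest, circRNA2132, had 1 read, spans 430 kb and was assigned to another Atrnl1 transcript than the other 26. Its donor is labelled exon 27 by the exon count on that transcript. It need not be the next exon after exon 26 in the transcript of the others. The 4 junctions were grouped after their values were seen, and no share of such separations over other groupings is given.

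The remaining circles rested on 1 to 5 reads each. Inside the upstream cluster, circRNA2133 (exons 5 to 9) had 1, 2 and 0 reads against 1, 1 and 0, and circRNA2134 (exons 10 to 13) had 3 reads, all in control 1. Inside the downstream cluster, circRNA2138 (exons 19 to 23) had 1 read in every library except model rat 2, and circRNA2137 (exons 19 to 26) had 2 reads in control 1. A total of 7 junctions had a single read. All Atrnl1 reads except those of circRNA2141 came to 57, 35 and 27 in the control group and 28, 14 and 14 in the model group. Their log2 fold was -0.83 ± 0.39 (SE) in an edgeR fit across host genes with the Atrnl1 sum split into circRNA2141 and all others. For the whole gene it was -1.10 ± 0.29 (SE) in the fit that kept each host as 1 sum. Of the 107 host genes in that fit, 1.87% were called lower and Atrnl1 was not among them. Its sum was called in fits of hosts with at least 6 reads and with the authors' SRPBM divisors as library sizes. It was also called with same-numbered rats paired and without model rat 1, but in no other setting. Nothing is read from these calls.

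The number of distinct junctions per library has to be read beside the number of reads. There were 19, 15 and 9 junctions in the control group and 10, 5 and 7 in the model group, from 128 to 196 Atrnl1 reads per control and 36 to 93 per model rat. Thinned to 36 Atrnl1 reads in each library, 6.97 ± 1.78 junctions were expected in the control group and 5.69 ± 0.875 in the model group (SD, n = 3), and these ranges overlapped. Over both groups, 11 junctions were seen in both, 11 in the control group only with 25 reads in all, and 3 in the model group only with 1 read each. This count was not thinned, and the control group held 474 Atrnl1 reads against 188 in the model group. No share of group-only junctions over all circRNAs is given, so nothing is read from the count.

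Within the gene, circRNA2141 took 70.9%, 72.7% and 82.0% of Atrnl1 reads in the control group and 69.9%, 61.1% and 76.3% in the model group. The 95% Wilson intervals were widest in model rat 2 (44.9% to 75.2%) and narrowest in control 3 (75.1% to 87.3%), and the groups overlapped. The share at its acceptor was 78.3% ± 4.43 in the control group and 69.8% ± 7.82 in the model group, and at its donor 80.8% ± 2.29 and 77.2% ± 5.47 (SD, n = 3). The groups overlapped in each of these shares. The read-weighted mean number of exons was 5.95 ± 0.271 and 6.68 ± 1.30 (SD, n = 3). Model rat 2, at 8.17, stood above the rest, with 4 of its 36 reads from the 25-exon circRNA2130. Without it the model minus control difference was -0.0138 exons in place of 0.731.

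**Figure D4:**
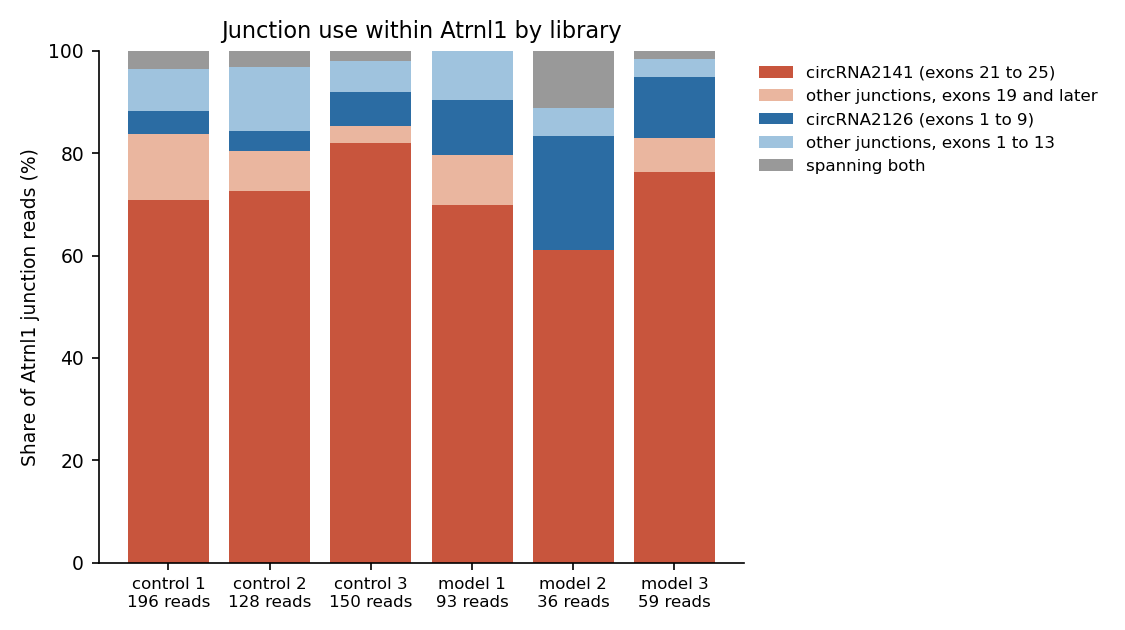
Share of Atrnl1 junction reads (%) taken by circRNA2141, circRNA2126 and 3 groups of other junctions in each library, with the Atrnl1 reads of the library under its bar. The circRNA2126 share is 3.91% to 6.67% in the control group and 10.8% to 22.2% in the model group.

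The authors' deposited table marks 2 members as changed, circRNA2141 (log2 fold -1.42, p = 0.00641) and circRNA2124 (log2 fold -2.56, p = 0.0364), both with a q-value of 1 in that table. It gives circRNA2126 a log2 fold of 0.07 and does not mark it. Of the 8635 circRNAs with a read, the authors' deposited table marks 0.255% as changed and lower. The test behind those p-values was not named by the submitters' notes used here.

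Atrnl1 combined many junctions with a dominant one. Among 100 host genes with at least 60 reads, the top junction held a median of 63.2% of reads over a median of 7 junctions. Only Nbea, which encodes neurobeachin, had more junctions (37), with 12 of its 86 reads in the top one. The other hosts with at least 20 junctions were Agtpbp1, with 15 of 79 reads in the top junction, and Ptprd, with 44 of 96 (45.8%), against 73.6% of 662 for Atrnl1. The number of junctions seen depends on the reads, which differed between these hosts. Just under 20 junctions, Ralgapa1 had 17, with 178 of 215 reads (82.8%) in its top one, and Rere had 19, with 70 of 403. These are descriptions of a few genes and were not tested.

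**Figure D5:**
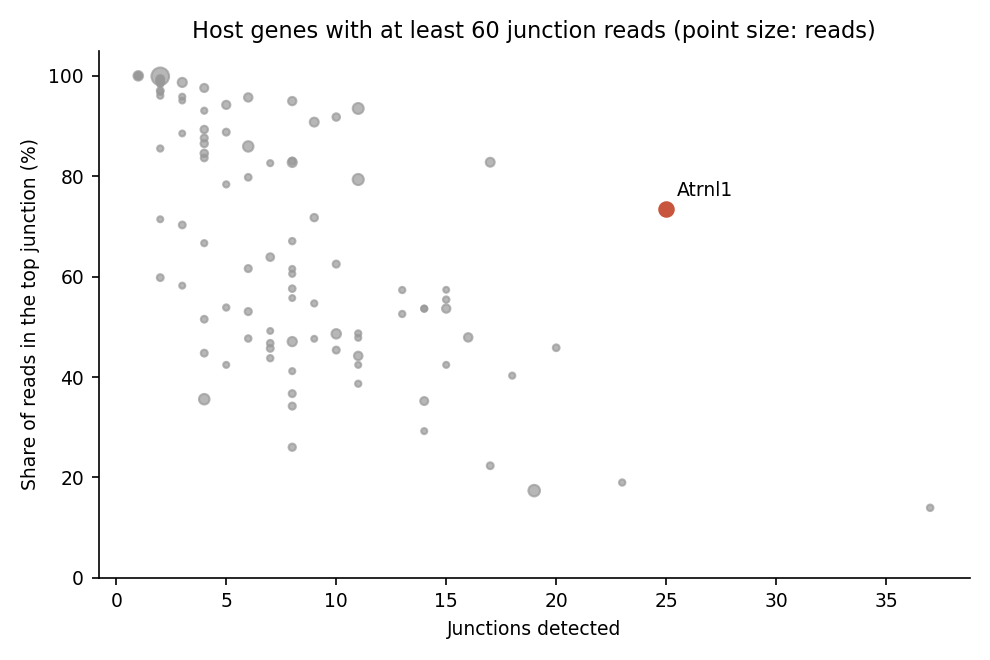
Junctions detected against the share of reads in the top junction (%) for 100 host genes with at least 60 reads; point size grows with reads and Atrnl1 is in red. Atrnl1, with 25 junctions and 73.6%, lies above the other hosts with 20 or more junctions, which stand at 45.8% or less; the point at 17 junctions and 82.8% is Ralgapa1.

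Of 16 genes of the attractin and melanocortin pathway, 3 gave circular reads and none had 10. Atrn, the paralogue, had 1, 0 and 1 reads in the control group and 2, 2 and 1 in the model group. Rnf157, a ubiquitin ligase gene related to Mgrn1, had 2 reads in all. Mgrn1, Mc4r, Mc3r, Agrp, Asip and Pomc gave none. Of the loci near Atrnl1, listed under 15 symbols of which Fam160b1 is an older name of Fhip2a, only Fhip2a gave a read, while the flanking genes Trub1 and Gfra1 gave none. Of 24 genes for transmembrane proteins with CUB, EGF or plexin-type repeats, 14 were detected, with 118 reads in the control group and 122 in the model group, and 4 had at least 10. These 4 were Csmd2 (12, 7 and 22 against 2, 13 and 13), Csmd1 (6, 7 and 7 against 10, 8 and 2), Csmd3 (6, 5 and 7 against 8, 1 and 8) and Lrp1b (11, 8 and 5 against 8, 3 and 17), all with overlapping groups.

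By Pearson r of log2 levels over the 6 libraries, the hosts whose summed reads were most like those of Atrnl1, of 99 compared, were Fbxl17 (0.88), Prex2 (0.84), Usp32 (0.82), Yme1l1 (0.82) and Phip (0.80). The least like were Ntrk2 (-0.86) and Zmym2 (-0.82). All share the libraries and their depth, and Atrnl1 itself differs between the groups, so a host that differs between them in the same direction scores high. Fbxl17, Prex2 and Yme1l1 had every model library below every control library, as had 8.0% of the 100 hosts with at least 60 reads. With 6 libraries these values are a description.

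White matter is rich in oligodendrocytes, the cells that make myelin. Of 12 oligodendrocyte markers, 6 gave circular reads (among them Mbp, Mobp and Ugt8) and 6 gave none (Mag, Mog, Cnp, Cldn11, Sox10 and Mal). Their summed reads were 2, 8 and 7 in the control group and 0, 6 and 0 in the model group. Their part in the Atrnl1 values was not tested. Astrocyte markers had 33 and 24 reads, nearly all from Slc1a2, and neuronal markers 9 and 11 (control first). Endothelial and pericyte markers had 10 and 3, all from Flt1, ependymal markers 4 and 11, all from Dnah9, precursor markers 4 and 1, and the 6 microglial markers none. Since linear RNA was digested, a marker at 0 says only that no circle of it was read.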

How the data were processed

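Raw counts of back-splice junction reads per circRNA and library were deposited by the authors, per the file headers, with an SRPBM signal, log2 fold changes, p-values and q-values. The authors' SRPBM signal equals the count over 1 divisor per library and was used only as an alternative scaling. Aligner, circRNA caller and annotation were not given in the sources used here. Circle coordinates are in mRatBN7.2, a build named in the submitters' processing notes. Counts of the whole table were fitted by quasi-likelihood in edgeR 4.0.16 under R 4.3.3, with TMM scaling and filterByExpr (min.count 10, min.total.count 15), and Benjamini-Hochberg adjustment. DESeq2 1.42.0 was an alternative. The edgeR fit was run on simulated counts with a filter of at least 6 reads and with folds and spread set in advance. Those settings differ from the main fit, so nothing is read from that run for the folds given here. A level is given per 1000 junction reads after TMM scaling. Standard errors were worked out from each fold and F value. Ratios of pooled reads carry exact 95% binomial intervals and shares Wilson intervals. These cover counting error only and leave out the spread between rats. That PCR copies were not removed by molecular identifiers is a further limit of these intervals. A count of 0 in a library allows up to 3 reads, 0.0442% to 0.0632% of its junction reads. Atrnl1 matched 1 symbol in RefSeq.

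The members, lists and tests were chosen with earlier results of these data known. Named were all Atrnl1 entries, singly from 2 reads up, list genes with at least 10 reads, and the 5 most and 2 least similar hosts with at least 60 reads (0.5 read added before log2). Other genes were named after their values were seen. Some list members are not reported here by name. Exact permutation tests planned for 4 within-gene measures are not printed, because those measures rest on the reads that led to the choice of the gene, and with 3 against 3 rats p cannot go below 0.1. The p-values behind the edgeR and DESeq2 calls measure the spread between these rats only. What spread the authors' p-values measure is not known, since their test was not named.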

Additional observations from a re-analysis of the deposited data

How the results depend on the processing

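Direction held for the log2 folds of circRNA2141, the Atrnl1 sum and the sum without circRNA2141 in every alternative run. With 1 library left out they ranged from -1.52 to -0.88, from -1.45 to -0.92 and from -1.17 to -0.54 (without control 1). With the authors' divisors, an alternative chosen after seeing the data, they were -1.42, -1.32 and -1.05. Calls over all features were less stable. Against 2 circRNAs in the main fit, 0 passed with DESeq2, with DESeq2-type size factors in edgeR and with no filter (3, 3 and 53 at an unadjusted p under 0.05), and 0 to 1 with 1 library left out. Against 2 host genes, 1 passed with DESeq2 and 0 to 4 with 1 library left out. With 1 library left out, circRNA2141 was never called, and the Atrnl1 sum was called without model rat 1. Nothing is read from these calls, since the gene was chosen with this contrast known.

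Over the 60 tested circRNAs, the deviations of same-numbered rats showed little correlation (r of -0.0832, -0.115 and -0.00100). The labels give these rats only a shared number. At such read counts, a small r cannot exclude a pairing. With the replicate block the log2 folds were -1.29, -1.14 and -0.84, and 2 circRNAs and 3 host genes passed, Atrnl1 among the latter. The mean differences of the within-gene shares are the same in this pairing by arithmetic. A mean of paired differences always equals the difference of the group means, so this is no check.

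Model minus control, the circRNA2141 share was -6.10 points (-9.69 to -2.11 with 1 library left out), the acceptor share -8.49 (-11.7 to -4.14), the donor share -3.57 (-6.50 to -1.08), and the exon number 0.731 (-0.0138 to 1.17), which turned without model rat 2. The groups overlapped in each of these measures. Of the 5 most similar hosts, 3 remained by Spearman rho and 1 with at least 30 reads, so that list depends on the setting. Depth limits the rarer circles: of the 5 others with at least 10 reads, all but circRNA2124 have a counting interval that includes a ratio of 1. These intervals leave out the spread between rats, and the groups overlapped for circRNA2124 as well, so nothing is read from them.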
